A study of Rattus norvegicus with 12 samples.

Results

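Retromer is the coat that recovers membrane proteins from endosomes. Its genes were followed here in the embryonic rat ganglionic eminences, together with the sorting nexins that work beside it. The set named 10 genes: the core subunits Vps35, Vps26a, Vps26b and Vps29, and the sorting nexins Snx1, Snx2, Snx3, Snx5, Snx6 and Snx27. A gene counted as measured where the platform annotation gave a probe set exactly 1 gene symbol, equal to its own. This held for 9 of the 10, each read by 1 probe set, among 14506 genes measured in all. Snx3 had no such probe set and was not analysed here. The members were chosen on the fall of Vps35 in homozygous embryos, so the contrast between genotypes is given for all 9 as a description, without p-values.

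Affymetrix Rat Gene arrays were run on 12 embryos of embryonic day 14. The homozygous group held 6 embryos with the BACHD transgene, which carries human full-length huntingtin with 96 CAG repeats, and the wild-type group held 6 embryos without it. All were taken on 1 day from 3 transgenic dams sedated with ketamine and xylazine, and each array held the RNA of the medial and lateral eminences of 1 embryo. The comparison asks which transcripts the transgene has altered by this early stage. The dam and the sex of each embryo were not used here. The tissue mixes dividing progenitors with young neurons, so fewer cells of a type and less RNA per cell cannot be told apart.

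In the textbook account, Vps35 is an elongated scaffold that holds a Vps26 subunit, an arrestin-like protein, at one end and Vps29 at the other. Snx1 or Snx2 pairs with Snx5 or Snx6 through BAR domains that bend membrane into tubules, while Snx3 and Snx27 bring retromer to particular cargo. The cargo then returns to the trans-Golgi network or the cell surface, and in neurons this route serves receptors of the axon and synapse. A missense change in human VPS35 causes an inherited form of Parkinson's disease.

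All values are log2 intensities, and a difference is homozygous minus wild type on that scale. Probe sets differ in how brightly they read, so no level was set against that of another gene. The 1 probe set of Htt, the rat huntingtin gene, read higher in homozygous embryos by 0.30 ± 0.056 (SE, n = 6 per group). Whether it also reads the human transcript of the transgene was not tested, so the difference cannot be assigned to the rat gene. Wild-type array medians lay between 7.67 and 7.71, homozygous ones between 7.69 and 7.76, and the median difference over all genes was 0.02. Wild type 1 and 2 stood apart from the other 4 wild-type embryos: both lay above those 4 in 21.8% of genes and below them in 18.8%. The cause was not tested. Values without them are given beside each member, and beside other named genes where they differ by more than 1.5 times.

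Vps35, the scaffold on which the other subunits assemble, was lower in every homozygous embryo than in any wild-type embryo. Its log2 intensity had a lowest value of 11.19, a median of 11.23 and a highest value of 11.26 in wild type. In homozygous embryos these were 11.03, 11.09 and 11.13. Vps35 was thus tightly grouped within each genotype, with SDs of 0.0227 and 0.0384. The difference was -0.13 ± 0.024 (SE, n = 6 per group), so that Vps35 fell by 8.82%. Wild type 1 and 2, at 11.21 and 11.23, lay among the other wild-type embryos, and the difference without them was -0.14 ± 0.025. Of the 9 measured members Vps35 alone passed an adjusted p of 0.05 in limma, against 0.424% of all probe sets in either direction and 0.199% lower in homozygous embryos. It is the value for which the set was chosen, so nothing is read from that count. Vps35 did not pass in 8 of the 12 fits that left out 1 array, those without wild type 4, 5 or 6 or homozygous 1, 2, 3, 4 or 5, at differences between -0.14 and -0.12. Nor did it pass in 2 further fits at the same difference, with the replicate number as a block and without an intensity trend.

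**Figure D1:**
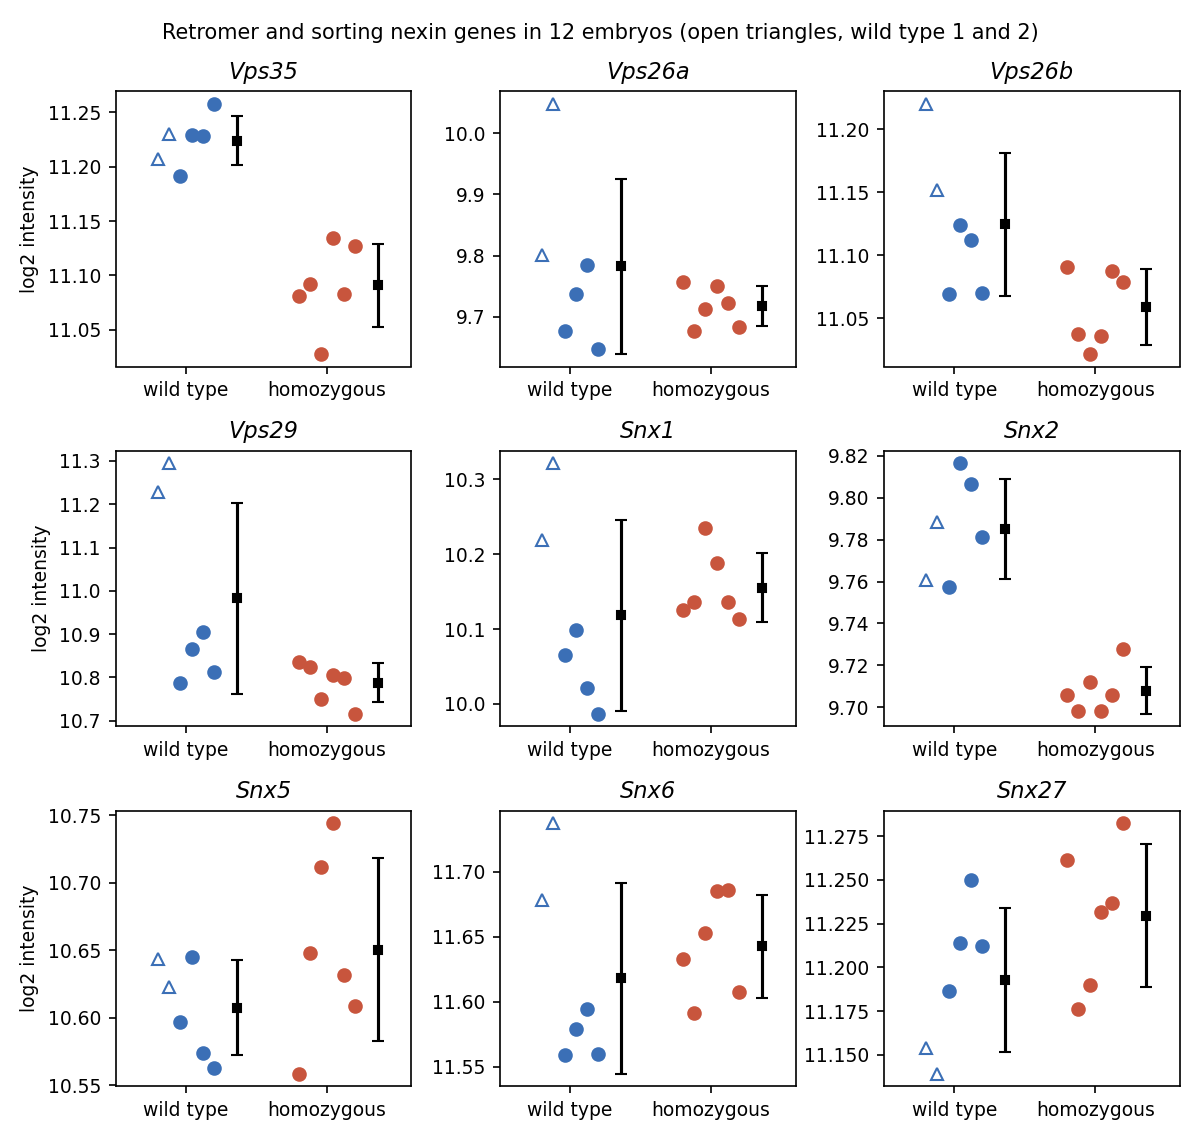
Log2 intensity of the 9 measured members in each embryo, 1 panel per gene with its own vertical scale. Circles are embryos, open triangles mark wild type 1 and 2, and squares with bars are group means with SD (n = 6 per group). The groups are separate for Vps35 and Snx2, and in Vps29 the open triangles lie at 11.23 and 11.29, above every other embryo.

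The 250 bases before the annotated start of Vps35 and of Vps29 are shown because these core subunits had the lowest differences of the set. They come from RefSeq, assembly GRCr8, which held 9 of the 10 promoters and not that of Snx27. Both lie outside the transcribed part of their gene. Capitals mark GC boxes (GGGCGG) and CCAAT boxes (CCAAT), searched on both strands, so that CCGCCC and ATTGG are the same motifs read from the other strand. No 2 motifs overlapped in these windows. The Vps35 window is chr19:37938739-37938988 on the plus strand and the Vps29 window is chr12:39878733-39878982 on the minus strand.
Vps35: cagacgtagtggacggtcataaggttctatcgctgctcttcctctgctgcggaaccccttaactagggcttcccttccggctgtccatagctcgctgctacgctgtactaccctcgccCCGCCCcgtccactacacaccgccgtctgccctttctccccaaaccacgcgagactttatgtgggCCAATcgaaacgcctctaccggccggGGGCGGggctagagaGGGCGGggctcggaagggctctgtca
Vps29: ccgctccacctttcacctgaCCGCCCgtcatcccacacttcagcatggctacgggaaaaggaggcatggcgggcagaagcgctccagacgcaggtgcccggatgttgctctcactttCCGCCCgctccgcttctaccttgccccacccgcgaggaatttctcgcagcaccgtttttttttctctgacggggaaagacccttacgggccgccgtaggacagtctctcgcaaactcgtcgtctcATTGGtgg
The Vps35 window held 3 GC boxes and 1 CCAAT box, and the Vps29 window held 2 and 1. Among the 9 member promoters, 6 held a GC box and 3 a CCAAT box, against 30.5% and 34.0% of 33469 promoters of the same length. Those 33469 were not limited to measured genes, and the 9 include that of Snx3, so no enrichment is read from any motif count here. The E-box CACGTG, which reads the same on both strands, was in 2 of the 9, those of Vps26a and Snx2, against 5.59% of all promoters. Its surroundings are shown with the motif in capitals, since Vps26a carried it 2 times. Of all promoters 0.43% carried it 2 or more times. The Vps26a window is chr20:30976890-30977139 on the minus strand, with the motif beginning 33 and 9 bases before the start. The Snx2 window is chr18:48800344-48800593 on the plus strand, with the motif 16 bases before the start. A match describes these letters and was not tested as a binding site.
Vps26a, first: aaaaggagtggtCACGTGcggctggtggcc
Vps26a, second: gtggcctacggtCACGTGacg
Snx2: gccttgcgtgctCACGTGacaggtccgc

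The other core subunits also had lower means in homozygous embryos, but their groups overlapped and none passed the threshold. Vps29, which binds the far end of the scaffold and docks regulators, had a lowest value of 10.79, a median of 10.89 and a highest value of 11.29 in wild type. In homozygous embryos it had 10.72, 10.80 and 10.84. Its difference of -0.19 ± 0.080 (SE, n = 6 per group) was the lowest of the set. Much of that distance lay in wild type 1 and 2, at 11.23 and 11.29, while the other 4 wild-type embryos lay between 10.79 and 10.91. Without the pair the difference was -0.05 ± 0.031.

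Vps26a and Vps26b encode alternative forms of the arrestin-like subunit, which takes part in cargo recognition. For Vps26a the lowest, median and highest values were 9.65, 9.76 and 10.05 in wild type, and 9.68, 9.72 and 9.76 in homozygous embryos. All 6 homozygous values lay inside the wild-type range, at a difference of -0.07 ± 0.055. The highest value was that of wild type 2; without it the difference was -0.01, and without wild type 1 and 2 together it was 0.0062 ± 0.033. No direction can therefore be given for Vps26a. For Vps26b the values were 11.07, 11.12 and 11.22 in wild type and 11.02, 11.06 and 11.09 in homozygous embryos. Here 3 homozygous embryos lay below every wild-type embryo and 3 within their range. The difference was -0.07 ± 0.029, and -0.03 ± 0.024 without wild type 1 and 2.

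Set side by side, the 4 core subunits, Vps35 by the choice of the set, had differences below 0, as 38.6% of all genes did. Without wild type 1 and 2 this held for 3 of the 4, and their median moved from -0.10 to -0.04. Nothing is read from these counts. Only Vps35 kept separate groups, and leaving out wild type 1 and 2 moved each of the other core subunits by more than 1.5 times. Unequal change between subunits was not tested.

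Among the BAR-domain sorting nexins, Snx2 had a lower mean in homozygous embryos and Snx1, Snx5 and Snx6 had higher ones, none past the threshold. Snx2, which pairs with Snx5 or Snx6 to form membrane tubules, had a lowest value of 9.76, a median of 9.78 and a highest value of 9.82 in wild type. In homozygous embryos it had 9.70, 9.71 and 9.73. No homozygous embryo reached the lowest wild-type value, and the homozygous SD was 0.0111. The difference was -0.08 ± 0.024 (SE, n = 6 per group), or -5.20% on the linear scale, and did not pass the threshold over all probe sets. It was -0.08 ± 0.025 without wild type 1 and 2, which lay at 9.76 and 9.79. Groups were separate in 2 of the 9 members, Vps35 and Snx2, both with homozygous embryos lower, against 0.944% of all genes with homozygous embryos lower and 2.20% in either direction. Since this is the contrast on which the set was chosen, nothing is read from that share.

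Snx1, the close relative of Snx2, had values of 9.99, 10.08 and 10.32 in wild type and of 10.11, 10.14 and 10.23 in homozygous embryos. The homozygous embryos lay within the wild-type range and above wild type 3 to 6, which were at 10.10 or less. Wild type 1 and 2, at 10.22 and 10.32, lay above all of them except homozygous 3, at 10.23, which exceeded wild type 1. The difference was 0.04 ± 0.051. Without wild type 1 and 2 it was 0.11 ± 0.033 and the groups no longer overlapped, as in 6.62% of all genes without that pair. With each array centred on its median it was -0.00098, so the sign for all 12 embryos depends on the scaling.

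Snx5 and Snx6, the partners that carry the cargo-binding surface of the pair, overlapped between genotypes. Snx5 had a median of 10.61 in wild type, between 10.56 and 10.65, and of 10.64 in homozygous embryos, between 10.56 and 10.74. Its difference was 0.04 ± 0.033, 0.06 without wild type 1 and 2 and 0.0051 with centred arrays. The homozygous embryos spread over the whole wild-type range and above it, 3 of them lying higher than any wild-type embryo and 1 lower. Snx6 had a median of 11.59 in wild type, between 11.56 and 11.74, and of 11.64 in homozygous embryos, between 11.59 and 11.69. Its difference was 0.02 ± 0.033, and 0.07 ± 0.024 without wild type 1 and 2, at 11.68 and 11.74. It was -0.01 with centred arrays, so no direction can be given for Snx6.

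Snx27, which has a PDZ domain and returns receptors to the cell surface, including glutamate receptors of synapses, had a median of 11.20 in wild type, between 11.14 and 11.25. In homozygous embryos the median was 11.23, between 11.18 and 11.28. The difference was 0.04 ± 0.027, and -0.00077 with centred arrays. Wild type 1 and 2 were the lowest of all 12 embryos for this gene, at 11.15 and 11.14, and without them the difference was 0.01 ± 0.026. A missed threshold does not show that these sorting nexins were alike in both genotypes: the 95% confidence intervals, unadjusted for the number of genes, reached from -0.07 to 0.15 for Snx1 and from -0.02 to 0.10 for Snx27.

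**Figure D2:**
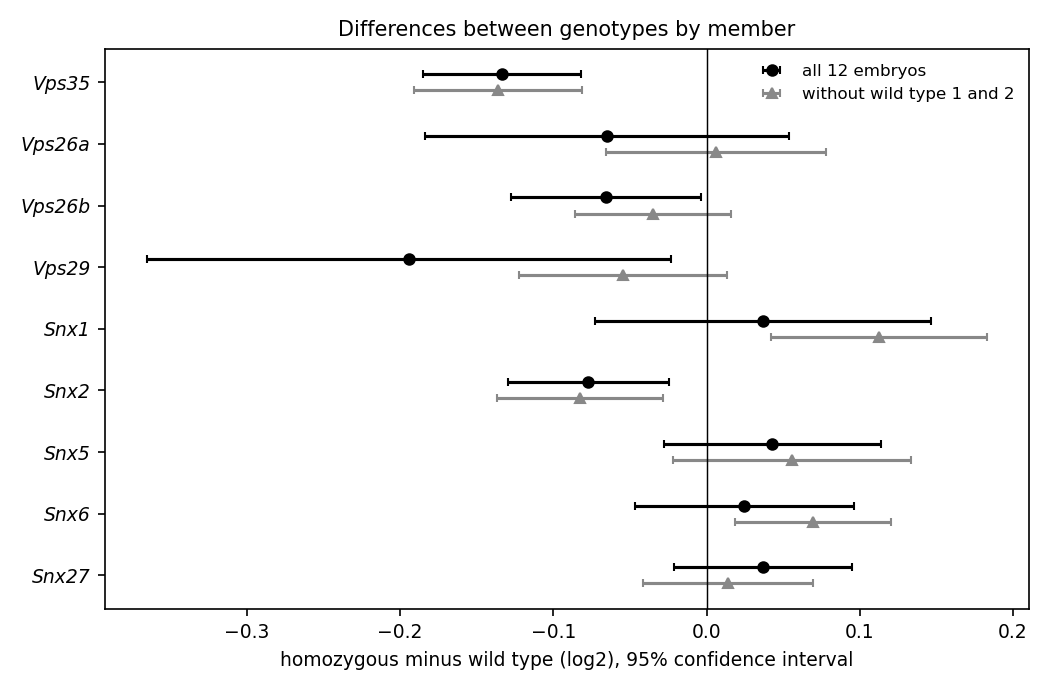
Difference between genotypes for each measured member on the log2 scale, with unadjusted 95% confidence intervals from limma. Black circles use all 12 embryos and grey triangles leave out wild type 1 and 2. Vps35 stays at -0.13 and -0.14, whereas Vps29 moves from -0.19 to -0.05 and Snx1 from 0.04 to 0.11.

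How wild type 1 and 2 stood differed by member. Both lay above the other 4 wild-type embryos in 5 of the 9 genes (Vps26a, Vps26b, Vps29, Snx1 and Snx6), against 21.8% of all genes. Both lay below them in Snx27, against 18.8% of all genes, and in Vps35, Snx2 and Snx5 they did neither. No trait of the members is read from these counts. The mean level of 6 erythroid markers was highest in wild type 2, at 10.08, followed by homozygous 4 at 9.87 and wild type 1 at 9.85. For 9 microglial markers wild type 1 and 2 were the highest of the 12 embryos, at 7.83 and 7.75. For 9 endothelial markers wild type 2 was the highest, at 8.73, and wild type 1 the third, at 8.66. Counted from the highest of the 12 embryos, wild type 1 and 2 ranked 2 and 4 for pallial markers and 2 and 6 for eminence markers. For choroid plexus markers, and likewise for mesenchymal markers, they ranked 11 and 9. The part of these markers in the result was not tested.

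The spread within a genotype was not used to choose the genes, and so the members were compared there. Across the 6 embryos of each genotype, Vps35 was set against the other 8 members, 16 comparisons in all. Pearson's r lay between -0.41 and 0.54 in wild type and between -0.53 and 0.52 in homozygous embryos. Spearman's rho lay between -0.26 and 0.49 in wild type and between -0.26 and 0.26 in homozygous embryos. The smallest exact permutation p (2-sided, n = 6) was 0.263 for r and 0.356 for rho, and after Benjamini-Hochberg adjustment over the 16 none was under 0.981. With the 2 embryos farthest from the Vps35 median left out, r ranged from -0.93 to 0.87 over 4 embryos, too few to read. A relation of Vps35 to the other members within a genotype was therefore not detectable with 6 embryos. Among the other members, 56 comparisons in all, no r passed an adjusted p of 0.05 by exact permutation, the lowest being 0.0519. With 6 embryos the exact permutation p cannot fall below 0.00139, the value of Vps29 with Snx6 in wild type. That is too high for a lone r to pass over 56 comparisons, so this result cannot decide whether these members were related. At an unadjusted p under 0.05 there were 8 of 28 in wild type and 3 of 28 in homozygous embryos. In wild type, r of Vps29 with Snx1 was 0.93, and 0.04 without wild type 1 and 2. For Vps29 with Snx6 it was 0.99, and 0.98 without them. Without that pair r is over 4 embryos, too few to read, so whether these values rested on the pair cannot be told.

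By the mean of Fisher-transformed r over both genotypes, the patterns most like that of Vps35 among 14505 genes were those of Pms1, Pnpt1, Clcn5, Cebpz, Clec2d2l1 and Slc22a25. In wild type their r with Vps35 was 0.63, 0.87, 0.96, 0.94, 0.76 and 0.93, in that order. In homozygous embryos it was 0.98, 0.93, 0.71, 0.77, 0.94 and 0.77. Such values are a description over 6 embryos per genotype, the highest of many compared, and share the arrays of Vps35. These genes did not share a difference between genotypes: it was -0.21 ± 0.045 for Cebpz, 0.36 ± 0.084 for Clec2d2l1 and 0.02 ± 0.039 for Clcn5 (0.01 without wild type 1 and 2), and none of the 6 passed the threshold in limma, though Cebpz passed in 4 of its 20 alternatives. The nearest member was Snx27, at rank 1476.

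Around retromer, 8 lists of genes on the same route were followed: those that make its tubules and tethers, carry its regulators, or are its cargo. None of their 90 measured genes passed an adjusted p of 0.05 in limma. At an unadjusted p under 0.05 there were 20, 10 higher and 10 lower in homozygous embryos, or 22.2% where all genes gave 15.1%. Groups were separate in 2 of the 90, Commd9 and Becn1, or 2.22% where all genes gave 2.20%.

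Of the WASH complex, which builds branched actin on endosomes beside retromer, 3 of 6 listed genes were measured. Washc1, the subunit that activates the Arp2/3 complex, differed by 0.11 ± 0.046 (adjusted p = 0.285 in limma) and Washc2c, which binds Vps35, by -0.02 ± 0.042, at -0.05 without wild type 1 and 2 and with the opposite sign without wild type 4 (0.0054). Among 8 of 15 listed regulators the median was 0.03, with Mon1b, of the exchange factor for Rab7, at 0.11 ± 0.035 and Pacsin2, a membrane-bending protein, at 0.10 ± 0.032.

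The commander assembly recycles other cargo through the related retriever complex, and 14 of 15 listed genes were measured, with a median of -0.03. Commd9, one of its COMMD subunits, had the lowest difference of the list, -0.22 ± 0.058 (SE; adjusted p = 0.111 in limma), with every homozygous embryo below every wild-type embryo. It passed without wild type 3, at -0.26 (adjusted p = 0.0449), but was at -0.13 without wild type 1 and 2 (adjusted p = 0.0638). Its cargo adaptor Snx17 differed by 0.13 ± 0.043 (adjusted p = 0.185), and by 0.19 without wild type 1 and 2, where it passed at 0.0124. Leaving out those embryos raised the share of probe sets called in limma to 1.99%.

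Of the cargo proteins, 16 of 20 listed were measured, with a median of 0.01. Sort1, for sortilin, differed by 0.09 ± 0.029 and Slc11a2, for an iron transporter, by 0.10 ± 0.034 (adjusted p = 0.182 and 0.187 in limma). For Sort1 the difference was 0.05 without wild type 1 and 2, and also 0.05 with centred arrays. Of 23 other sorting nexins 19 were measured, 9 with differences above 0 and 10 below, with Snx4 at -0.11 ± 0.039 and Snx20 at 0.18 ± 0.080, or 0.08 without wild type 1 and 2. Of the 5 sorting nexins measured in the retromer set, 4 had differences above 0, as did 61.4% of all genes. With centred arrays this held for 1 of the 5, Snx5. Centring lowers every difference by the same amount, and the median over all probe sets moved from 0.029 to -0.0085. The share of all genes above 0 was not counted for centred arrays, so nothing is read from that change.

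The GARP complex and its partners receive the carriers at the trans-Golgi network. Here 10 of 15 listed genes were measured, with a median of -0.04 and with the GARP subunit Vps54 at -0.14 ± 0.054 and the golgin Gcc2 at -0.08 ± 0.035. The HOPS and CORVET tethers of late and early endosomes had a median of -0.04 over 7 of 8 genes, with Vps39 at 0.09 ± 0.030 (0.12 and past the threshold without wild type 1 and 2, adjusted p = 0.0419 in limma) and Vps41 at -0.05 ± 0.029, or -0.02 without that pair. All 13 genes for phosphatidylinositol 3-phosphate and early endosomes were measured, with a median of -0.03. Becn1, of the lipid kinase complex that makes this phosphoinositide, differed by -0.10 ± 0.026 (adjusted p = 0.113 in limma), and by -0.12 without wild type 1 and 2, where it passed at 0.0418. Rab5a, the small GTPase of early endosomes, was at -0.13 ± 0.050, and at -0.06 without wild type 1 and 2.

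**Figure D3:**
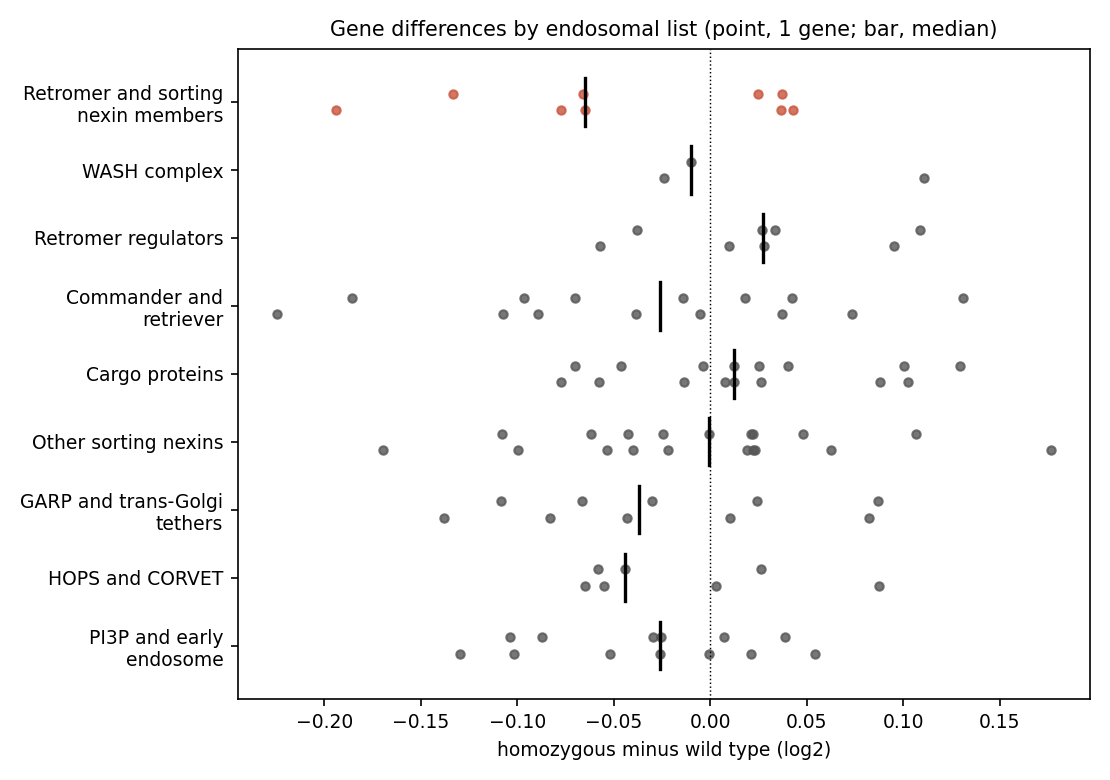
Difference between genotypes of each measured gene in the 9 retromer and sorting nexin members and in 8 lists of the endosomal route, on the log2 scale. Each point is 1 gene and each bar the list's median. Medians of the 8 lists lie between -0.04 and 0.03. The members, which include Vps35 by choice, have a median of -0.07, and of 0.0062 without wild type 1 and 2.

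Markers of the eminences and of other cells were read for the same arrays. Of 56 genes in 7 lists none passed in limma, with 10 at an unadjusted p under 0.05, or 17.9% where all genes gave 15.1%. Groups were separate in 3 of the 56 (Nkx2-1, Cdh5 and P2ry12), or 5.36% where all genes gave 2.20%. The gene named from each list is the one of smallest p, with Dlx5 added for the eminences, and none stands for its list. The mean level of 10 of 15 eminence markers lay between 11.02 and 11.17 in wild type, and between 11.04 and 11.18 in homozygous embryos, with a median difference of 0.02. Nkx2-1 differed by 0.16 ± 0.040 and Dlx5 by -0.18 ± 0.080. For Dlx5 the homozygous embryos, at 11.48 to 11.65, all lay inside the wild-type range of 11.44 to 12.03. Its difference without wild type 1 and 2 was not examined. Pallial markers, of the neighbouring cortex, ran from 9.24 to 9.69 and from 9.22 to 9.44 over 7 of 11, with 6 of the 7 lower, a median of -0.05 and Neurod6 at -0.36 ± 0.105. Erythroid markers ran from 9.57 to 10.08 and from 9.51 to 9.87 over 6 of 10, with 5 of the 6 lower, a median of -0.03 and Hbb at -0.49 ± 0.147, or -0.32 without wild type 1 and 2. Those of the choroid plexus, endothelium, microglia and mesenchyme overlapped between genotypes in mean level. Of all genes, 61.4% had differences above 0 and 38.6% below. Choroid plexus markers, 8 of 9 measured, had a median difference of 0.06 with 7 above 0. Ttr was at 0.17 ± 0.058, and at 0.11 after quantile normalization. These choroid plexus probe sets were dim, with mean levels between 6.27 and 6.55, against a median of 7.71 over all probe sets. Endothelial markers, 9 of 9, had a median of 0.0079 with 6 above 0 and 3 below, and Cdh5 at 0.15 ± 0.033. Microglial markers, 9 of 9, had a median of -0.02 with 3 above 0 and 6 below, and P2ry12 at -0.18 ± 0.049. Mesenchymal markers, 7 of 8, had a median of 0.05 with 6 above 0, and Col1a1 at 0.11 ± 0.063, or 0.05 without wild type 1 and 2. The part of these cells in the difference of Vps35 was not tested.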

How the data were processed

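Per the labels, RNA of the eminences of each embryo was hybridised to 1 array. The authors deposited log2 intensities, 1 per probe set. Partek 6.4 and RMA are listed in the submitters' processing notes, settings not given; the log2 scale was read from the values, which lay between 1.74 and 14.07. RMA usually makes arrays alike and can hide a shift of all genes. Arrays have no depth; their number limited precision.

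All 29214 probe sets were fitted by lmFit and eBayes (trend = TRUE, 2-sided) of limma 3.58.1, run in R 4.3.3. Genotype was the sole term, and p was adjusted by Benjamini-Hochberg over all probe sets, with 0.05 as the threshold. No probe set was removed. Symbols were updated by Entrez number through RefSeq GRCr8, which matched 15279 of 15310 probe sets with 1 gene. The brightest probe set stood for a gene. The fit was also run on simulated data with planted differences and independent noise in each array. In those data wild type 1 and 2 did not stand apart, so the run cannot show how many calls here are false. Figures used matplotlib 3.10.9 in Python 3.11.15.

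Members and lists, and the setting apart of wild type 1 and 2, were chosen with earlier results of these data known. Named genes are the members, Htt, the 2 genes of smallest p per endosomal list and any past the threshold, 1 per marker list, and the 6 genes most like Vps35. Alternatives were a replicate block, centred arrays, quantile normalization, no trend, a filter on dim probe sets, array weights, all probe sets of a gene averaged, and arrays left out. Correlations were tested by exact permutation of all pairings.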

Additional observations from a re-analysis of the deposited data

Results flagged for a closer look

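Among the named genes, 3 values lay far from the others of their group. Snx4, a sorting nexin outside the retromer set, stood at 9.59 in wild type 4, while the other 5 wild-type embryos lay between 9.43 and 9.49. The gap was 0.637 of the whole range of the group, above Dixon's critical value at the 95% level for 6 samples. Among the genes most like Vps35, Pms1 stood at 8.61 in wild type 6, above the other wild-type embryos, at 8.47 to 8.51, a gap of 0.730 of the range. Slc22a25 stood at 5.75 in homozygous 3, below the other homozygous embryos, at 5.96 to 6.08, a gap of 0.633 of the range. These were 3 of 78 groups of 6, in 39 named genes, and chance flags about 5% of groups. No value of a retromer member was so far from its group.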

How the results depend on the processing

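Vps35 was lower in homozygous embryos in all 20 alternatives, from -0.17 to -0.12, and passed the threshold in 10 of them. The set was chosen for this fall in the same arrays, so these refits are a description and no independent support. Vps35 did not pass with the replicate block, without an intensity trend, or in 8 of the 12 fits without 1 array. The number of members past the threshold, 1, was accordingly 0 with the replicate block and 0 without a trend, and from 0 to 1 with 1 array left out. All probe sets past the threshold numbered 124, and 18 with the replicate block, 302 with arrays centred on their medians, 3 without a trend, 255 above the overall median only, 414 with array weights, 582 without wild type 1 and 2, and from 4 to 200 with 1 array left out. The calls were 53.2% higher in homozygous embryos, but 11.6% with centred arrays and 35.8% after quantile normalization. The labels do not say whether same-numbered embryos are pairs. The correlation of their deviations ran from -0.08 to 0.26 and was over 0.1 for 2 of 6 numbers, and 2 of 6 wild-type arrays matched their own number best. These values do not settle whether same-numbered embryos belong together. Of 39 named genes, 6 changed sign in 1 alternative each, none of them past the threshold: Snx1 (-0.00098), Snx6 (-0.013), Snx27 (-0.00077) and Clcn5 (-0.017) with centred arrays, Vps26a (0.0062) without wild type 1 and 2, and Washc2c, from -0.045 to 0.0054 with 1 array left out, the last without wild type 4. Htt did not pass in 14 of its 20 alternatives, at 0.25 to 0.32. Cebpz passed in 4 alternatives, Becn1 in 3, Cdh5 and Snx17 in 2 each, and Commd9 and Vps39 in 1 each. No correlation of Vps35 with a member passed in any of the alternatives run, which were centring, quantile normalization and leaving out each array. In the genotype that lost an array, too few pairings remain for a lone r to pass after adjustment, so those fits cannot decide this. The cause of these changes was not tested.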
